A study of Mus musculus with 8 samples.

Results

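snoRNA host transcripts are RNAs whose introns carry small nucleolar RNAs (snoRNAs). Of 9 such genes considered (Snhg1, Snhg3, Snhg4, Snhg5, Snhg6, Snhg8, Snhg12, Snhg15 and Gas5), a gene was included if the array carried a probe set annotated to it alone. Where a gene had several, the one used was to be chosen by its mean log2 value over the 8 arrays, the highest being taken. That left 7 of 22180 genes with such a probe set: Snhg1 (probe set 17357126), Snhg3 (17430824), Snhg4 (17349544), Snhg5 (17529549), Snhg6 (17221186), Snhg12 (17419389) and Snhg15 (17260396). Each of the 7 had 1 probe set, so the array means decided nothing, and all 7 passed the filter on dim genes, which left 13308 genes to be tested. Gas5 was measured by a probe set that it shares with Mir5117, and Snhg8 by one that it shares with Snora24. Their values are given as those of the shared probe sets and are not counted. The 9 genes were picked with earlier results of these data known, so their falls with glucose are a description and their p-values are no independent support.

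The cells were C2C12, a line of mouse muscle precursors (myoblasts) that form multinucleate myotubes when cultured, and total RNA was hybridised to Affymetrix Mouse Gene ST 2.1 arrays. All 4 groups had received a retrovirus expressing an shRNA as myoblasts, were then differentiated and were kept for 12 h at their glucose concentration. The groups were Baf60c knockdown myotubes (siBaf60c virus) at 10 mM glucose, Baf60c knockdown myotubes at 1 mM, control myotubes (siScramble virus) at 10 mM and control myotubes at 1 mM, with 2 arrays each, which the series design calls independent biological replicates. Baf60c (gene symbol Smarcd3) encodes a protein of the BAF complex, which remodels chromatin. Different cultures were kept at each glucose concentration, so a fall at 10 mM and a rise at 1 mM are the same measurement here.

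The targeted gene was read first. Smarcd3 shares its probe set with Chpf2, and this probe set was 2.30 ± 0.15 lower on the log2 scale in knockdown than in control cells over both glucose concentrations (limma adjusted p = 0.000919). The reduction was 6.15-fold in cells at 1 mM (adjusted p = 0.00313), and in cells at 10 mM it was 3.95-fold (adjusted p = 0.0171). In knockdown cells the probe set rose with glucose by 1.31 (adjusted p = 0.00442), its change of 0.67 in control cells was not called, and neither was the interaction (adjusted p = 0.672). Replicate arrays correlated at r = 0.987 to 0.990 across genes, which are not independent replicates. The 7 myotube markers examined (Myh3, Myog, Ckm, Acta1, Tnnt3, Mymk and Des) had a group mean of at least 3.92 in all 4 groups. Their summed level (as log2) was 12.9 and 13.0 on the knockdown arrays at 10 mM, 11.9 and 12.0 on the knockdown arrays at 1 mM, 13.5 and 13.7 on the control arrays at 10 mM and 13.0 and 13.1 on the control arrays at 1 mM. With glucose, 7 of 7 were called higher in knockdown cells and 4 of 7 in control cells (14.5% and 13.2% of all tested genes). The changes of all 7 were above 0 in both, at 0.56 to 1.75 and 0.35 to 1.21, and the interaction was called for 0 of 7. The part of this shift in the results below was not tested. Of 4 macrophage, 4 adipocyte and 4 endothelial markers, between 2 and 4 of each list had a group mean under 3, near the lower end of the scale, in every group. Of the macrophage markers, 2 were tested. With glucose Cd68 fell by 0.99 in knockdown cells (adjusted p = 0.0365) while its -0.88 in control cells had an adjusted p of 0.0535. Ptprc read 2.62 and 2.21 in knockdown cells at 10 mM, against 3.13 and 3.03 at 1 mM. In control cells it read 2.49 and 2.43 at 10 mM, against 2.52 and 2.77 at 1 mM. A signal of Ptprc above background was not shown at 10 mM in either cell type, nor at 1 mM in control cells. Ptprc fell by 0.67 in knockdown cells (adjusted p = 0.0282), and its -0.19 in control cells was not called (adjusted p = 0.476). Neither response was called different between the cell types (interaction adjusted p = 0.964 and 0.697), and the part of these genes in the hosts' values was not tested.

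The host RNAs described here have little known coding function. Their introns are processed into snoRNAs, of which the box C/D kind (Snord) guides ribose methylation and the H/ACA kind (Snora) guides pseudouridylation of ribosomal RNA. The spliced exonic RNA is exported, and several hosts are known targets of nonsense-mediated decay, the pathway that degrades RNAs on which ribosomes stop early. Many hosts also start with a run of pyrimidines (a terminal oligopyrimidine start), a feature shared with genes of the translation machinery. Gas5 was named for its accumulation in growth-arrested cells.

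The windows around the annotated starts of 3 hosts are shown because Snhg15 had the largest fall with glucose among the 7 hosts in control cells, Snhg12 had the largest in knockdown cells, and Snhg5 was called in knockdown cells and not in control cells. The windows run from 250 bases before to 50 after the start, are RefSeq sequence of build GRCm38.p6 and read 5′ to 3′ along the transcript. Capitals mark matches to the motifs named after them.

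Snhg15, chr11:6528711-6529010, minus strand: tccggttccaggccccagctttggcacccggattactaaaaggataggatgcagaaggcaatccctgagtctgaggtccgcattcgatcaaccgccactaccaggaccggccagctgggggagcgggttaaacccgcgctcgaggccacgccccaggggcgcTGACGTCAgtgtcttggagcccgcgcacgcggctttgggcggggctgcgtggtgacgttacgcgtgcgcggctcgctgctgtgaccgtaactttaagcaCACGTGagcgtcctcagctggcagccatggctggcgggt

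Snhg12, chr4:132308428-132308727, plus strand: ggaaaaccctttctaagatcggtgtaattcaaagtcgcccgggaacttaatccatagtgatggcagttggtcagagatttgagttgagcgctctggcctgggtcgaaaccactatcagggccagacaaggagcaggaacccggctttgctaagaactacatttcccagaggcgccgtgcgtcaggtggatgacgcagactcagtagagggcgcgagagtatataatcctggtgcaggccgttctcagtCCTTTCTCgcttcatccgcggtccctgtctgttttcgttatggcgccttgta

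Snhg5, chr9:88522848-88523147, minus strand: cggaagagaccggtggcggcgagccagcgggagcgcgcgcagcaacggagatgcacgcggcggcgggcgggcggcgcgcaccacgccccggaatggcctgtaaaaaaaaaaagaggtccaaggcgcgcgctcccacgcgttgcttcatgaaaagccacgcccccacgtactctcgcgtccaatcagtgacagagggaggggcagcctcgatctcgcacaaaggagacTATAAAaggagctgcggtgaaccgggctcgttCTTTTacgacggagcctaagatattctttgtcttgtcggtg

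The reference table held 5 of the 7 members (Snhg1, Snhg3, Snhg5, Snhg12 and Snhg15). The search covered the E-box CACGTG, the cyclic AMP response element TGACGTCA and the amino acid response element TGATGCAA on both strands, TATAAA on the transcript's strand, and a C followed by at least 4 further C or T beginning within 10 bases of the start. No matches overlapped in the sequences shown. Snhg15 held TGACGTCA from base -88 and CACGTG from base 12 (bases before the start are negative, and the start is base 1). The motif TGACGTCA was in 1.79% and CACGTG in 7.15% of all 32851 windows of this length. Snhg12 held a pyrimidine tract of 8 bases from base -2, and tracts of 5 bases began at base 3 in Snhg3 and at base 10 in Snhg5. Such a tract was in 3 of the 5 members and in 30.7% of all windows. TATAAA began at base -23 in Snhg5 and at base 23 in Snhg3, and 8.32% of all windows held it. TGATGCAA was in none of the 5 members and in 0.895% of all windows, and Snhg1 matched none of the motifs searched.

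All values below are log2 expression values of the deposited table, and changes are log2 changes ± SE from limma with 2 arrays per group. A gene was called at a Benjamini-Hochberg adjusted p under 0.05 over the 13308 genes tested. Levels of different probe sets are not compared with each other.

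The first comparison asks how the hosts differ between control myotubes kept at 10 mM and at 1 mM glucose. All 7 hosts were lower at 10 mM on average, and 5 of 7 were called lower, where 12.1% of all tested genes were called lower, 13.2% higher and 25.3% in either direction. Over all tested genes, 1761 were called higher and 1611 lower, and 1591 and 1840 with each array centred on its median. Their median change was -1.29, against -0.01 over all tested genes. The arrays of both concentrations did not overlap for 6 of 7 hosts, against 32.1% of all tested genes with every array lower at 10 mM. Because these are bulk samples, fewer cells of a type and less RNA per cell cannot be told apart.

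Snhg15, whose intron carries a snoRNA and which has been studied as a long non-coding RNA in tumours, read 4.56 and 4.09 in control cells at 10 mM, against 6.02 and 5.97 at 1 mM. Both arrays at 10 mM lay well below both at 1 mM. It fell 3.18-fold (-1.67 ± 0.23, adjusted p = 0.00239). Snhg6, the host of the box C/D snoRNA Snord87, read 6.87 and 6.96 at 10 mM, against 8.33 and 8.69 at 1 mM. Its groups did not overlap, and it fell 3.02-fold (-1.60 ± 0.19, adjusted p = 0.00131). Snhg12, with 4 snoRNAs in its introns, read 4.44 and 4.54 at 10 mM, against 5.99 and 5.80 at 1 mM. It fell 2.64-fold (-1.40 ± 0.17, adjusted p = 0.00158), again without overlap.

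Snhg1, the host of a cluster of box C/D snoRNAs, read 6.34 and 5.92 in control cells at 10 mM, against 7.54 and 7.30 at 1 mM. It fell 2.44-fold (-1.29 ± 0.22, adjusted p = 0.00539), with all 10 mM arrays below all 1 mM arrays. Snhg4, the host of the H/ACA snoRNA Snora74a, read 6.94 and 7.37 at 10 mM, against 7.96 and 7.63 at 1 mM. It fell 1.56-fold (-0.64 ± 0.18, adjusted p = 0.0411), and its groups lay closer together than those of Snhg1. That call was lost when any of 7 of the 8 arrays was left out (adjusted p between 0.0550 and 0.185) and when the replicate number was a block (adjusted p = 0.0617).

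The remaining hosts were not called in control cells. Snhg5, the host of snoRNAs of the U50 family, read 6.62 and 6.98 at 10 mM, against 7.19 and 7.08 at 1 mM. Its arrays did not overlap, but the change of -0.34 (95% confidence interval -0.81 to 0.14) did not pass the test (adjusted p = 0.265). Snhg3, the host of Snora73a and Snora73b, read 6.64 and 6.29 at 10 mM, against 6.84 and 6.58 at 1 mM. These arrays overlapped, and the change was -0.24 (95% confidence interval -0.70 to 0.22, adjusted p = 0.411). It was -0.11 and -0.38 without control replicate 1 and 2 at 1 mM, and -0.42 and -0.07 without control replicate 1 and 2 at 10 mM.

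**Figure D1:**
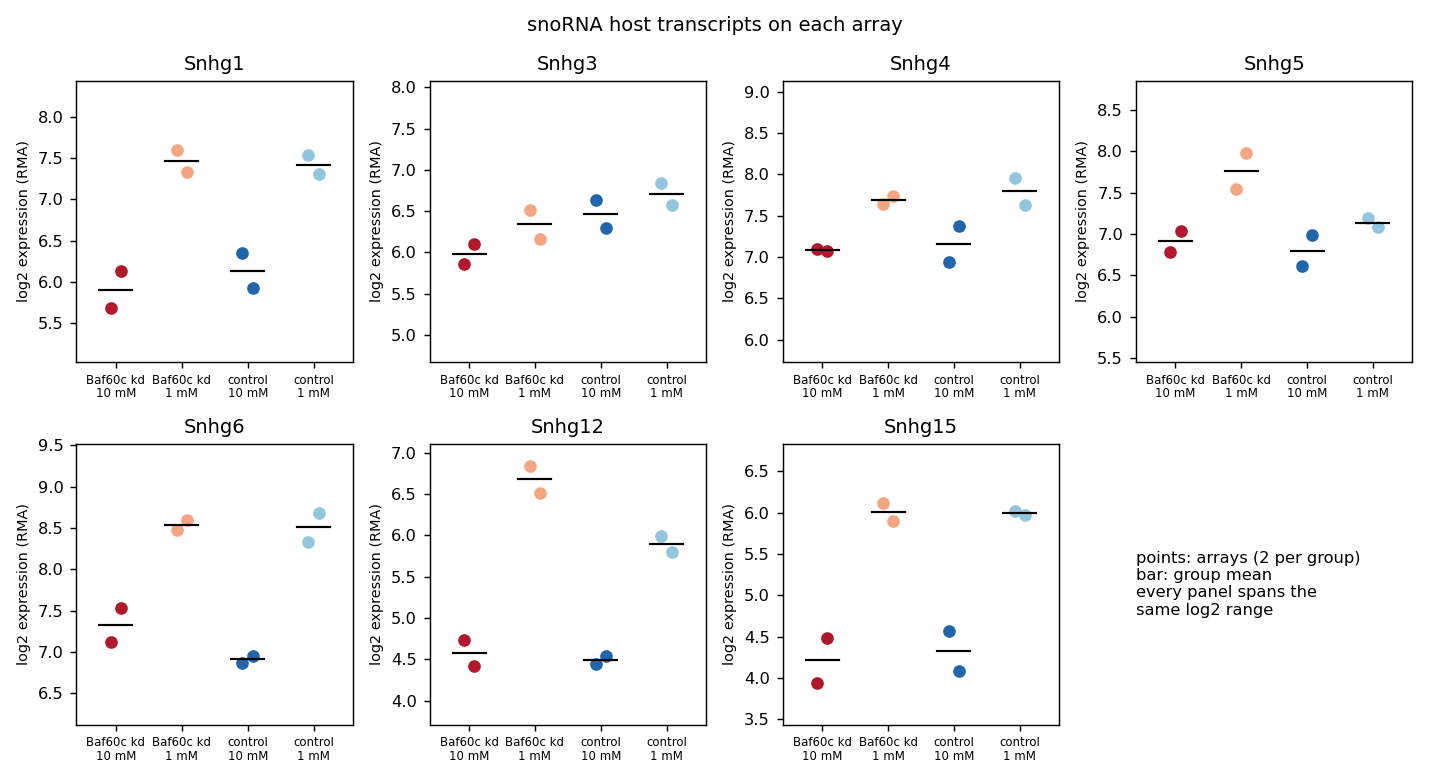
log2 expression of the 7 host transcripts on each of the 8 arrays, with 2 points and a bar at the mean for each group, knockdown (kd) and control cells at 10 mM and 1 mM glucose. In control cells both arrays at 10 mM lie below both at 1 mM in 6 of 7 hosts (all but Snhg3), most narrowly in Snhg5, and in 32.1% of all tested genes. In knockdown cells they do so in 7 of 7 hosts and in 29.4% of all tested genes. In Snhg12 the knockdown arrays at 1 mM (6.84 and 6.51) lie above the control arrays at 1 mM (5.99 and 5.80).

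The same comparison in Baf60c knockdown myotubes used other arrays. Here 6 of 7 hosts were called lower at 10 mM, where 10.6% of all tested genes were called lower, 14.5% higher and 25.1% in either direction. The median change was -1.21 against 0.03 over all tested genes. Over all tested genes, 1936 were called higher and 1406 lower, and 1612 and 1826 with each array centred on its median. For 7 of 7 hosts every array at 10 mM was below every array at 1 mM, as it was for 29.4% of all tested genes.

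In knockdown cells Snhg12 read 4.73 and 4.42 at 10 mM, against 6.84 and 6.51 at 1 mM, the widest separation among the 7 hosts. It fell 4.29-fold (-2.10 ± 0.17, adjusted p = 0.000313), and 0.594% of all tested genes had a change as low or lower. Snhg15 read 3.94 and 4.49 at 10 mM, against 6.12 and 5.90 at 1 mM. It fell 3.47-fold (-1.79 ± 0.23, adjusted p = 0.00155). Snhg1 read 5.68 and 6.13 at 10 mM, against 7.60 and 7.34 at 1 mM. It fell 2.95-fold (-1.56 ± 0.22, adjusted p = 0.00222), and as with Snhg15 the gap between the groups was larger than the spread within them.

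Snhg6 read 7.12 and 7.53 in knockdown cells at 10 mM, against 8.47 and 8.60 at 1 mM, and fell 2.31-fold (-1.21 ± 0.19, adjusted p = 0.00346). Snhg5 read 6.79 and 7.03 at 10 mM, against 7.54 and 7.98 at 1 mM, and fell 1.81-fold (-0.85 ± 0.20, adjusted p = 0.0198). The Snhg5 call was lost without knockdown replicate 2 at 1 mM (-0.63, adjusted p = 0.0954) and without knockdown replicate 1 at 10 mM (-0.73, adjusted p = 0.114). Snhg4 read 7.09 and 7.07 at 10 mM, against 7.64 and 7.74 at 1 mM, and fell 1.52-fold (-0.61 ± 0.18, adjusted p = 0.0487). Its call was lost without any of 6 of the 8 arrays (adjusted p between 0.0523 and 0.164) and with the replicate number as a block (adjusted p = 0.0718). Snhg3 read 5.85 and 6.11 at 10 mM, against 6.52 and 6.16 at 1 mM, and its change of -0.36 ± 0.20 was not called (adjusted p = 0.231), with values of -0.54 to -0.18 when 1 array was left out.

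The probe sets shared with small RNAs were read in the same way. The probe set of Gas5 and Mir5117 read 4.17 and 4.08 in control cells at 10 mM, against 4.91 and 5.25 at 1 mM, and fell 1.94-fold (-0.95 ± 0.20, adjusted p = 0.0129). In knockdown cells it read 4.20 and 4.37 at 10 mM, against 5.05 and 4.55 at 1 mM, and its change of -0.52 was not called (adjusted p = 0.104). The probe set of Snhg8 and Snora24 fell by 0.63 in knockdown cells (adjusted p = 0.0378), and its change of -0.51 in control cells was not called (adjusted p = 0.0744). In both, the arrays at 10 mM lay below those at 1 mM in both cell types, and the share of each gene in the signal was not resolved.

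**Figure D2:**
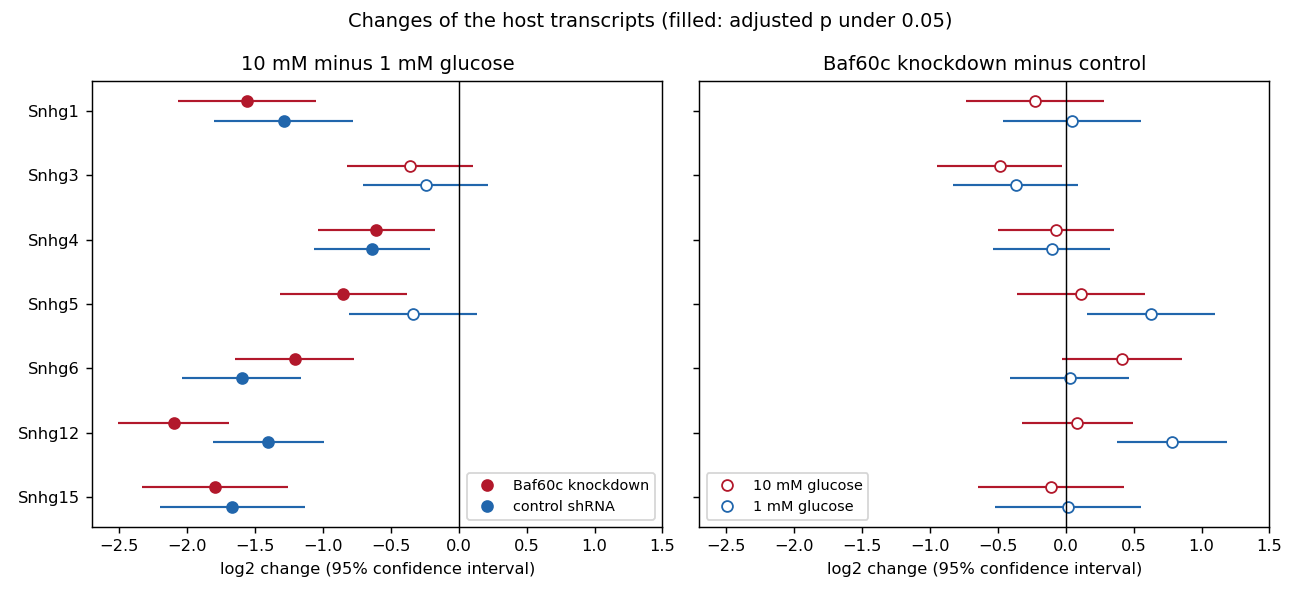
log2 changes of the 7 host transcripts with 95% confidence intervals. The left panel gives 10 mM minus 1 mM glucose in knockdown and control cells, and the right panel gives knockdown minus control at 10 mM and 1 mM, with filled points for adjusted p under 0.05. All called changes are falls with glucose, the lowest that of Snhg12 in knockdown cells (-2.10), and no change with knockdown is called.

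The interaction asks whether the glucose response of a host differs between knockdown and control cells. limma called 0 of 7 hosts, and 0 of 13308 genes (0%) in all, where 1 host and 1049 genes (7.88%) had an unadjusted p under 0.05. That host was Snhg12, whose estimated fall with glucose was larger in knockdown cells. The difference of its responses was -0.70 (95% confidence interval -1.27 to -0.12, adjusted p = 0.590) and was not called. For Snhg5, called in knockdown cells and not in control cells, the difference of the responses was -0.52 (95% confidence interval -1.18 to 0.15, adjusted p = 0.717), so the responses were not shown to differ. Snhg6 had a difference of 0.39 ± 0.27, and the other hosts lay between -0.27 and 0.03.

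Knockdown and control cells were then compared at each glucose concentration, which asks whether the hosts depend on Baf60c. limma called 0 of 7 hosts at 1 mM, where 1.49% of all tested genes were called, and 0 of 7 at 10 mM, where 1.12% were called. At an unadjusted p under 0.05 there were 2 hosts at 1 mM, where 15.9% of all tested genes passed that threshold, and 1 at 10 mM, where 13.6% did. Averaged over both concentrations, 0 of 7 were called (4.31% of all tested genes), and 3 had an unadjusted p under 0.05, as did 19.7% of all tested genes. Without overlap between the arrays, 2 hosts were higher and 1 lower in knockdown cells at 1 mM (20.2% and 26.9% of all tested genes), and 1 was higher and 1 lower at 10 mM (24.1% and 21.6%). Of the 7 myotube markers, 6 were called lower with knockdown at 1 mM and 3 at 10 mM, as were 167 and 92 of 13308 tested genes. The changes of all 7 were below 0 at both concentrations, and their part in the hosts' values was not tested.

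Snhg12 read 6.84 and 6.51 in knockdown cells at 1 mM, against 5.99 and 5.80 in control cells. Its groups did not overlap, and its change of 0.78 ± 0.17 (95% confidence interval 0.38 to 1.19) had an adjusted p of 0.0863. With trend and robust options in limma the adjusted p was 0.0431, and with a stricter filter on dim genes it was 0.0258. At 10 mM its change with knockdown was 0.09 ± 0.17 (adjusted p = 0.891), and averaged over both concentrations it was 0.43 ± 0.12 (adjusted p = 0.108, and 0.0437 with the stricter filter).

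Snhg5 read 7.54 and 7.98 in knockdown cells at 1 mM, against 7.19 and 7.08 in control cells, without overlap, and its change of 0.63 ± 0.20 was not called (adjusted p = 0.200). Snhg3 was the host with the lowest changes with knockdown, -0.37 at 1 mM (adjusted p = 0.415), -0.49 at 10 mM (adjusted p = 0.344) and -0.43 ± 0.14 averaged over both (adjusted p = 0.151). For Snhg1, Snhg4 and Snhg15 the averaged changes lay between -0.09 and -0.05. Their 95% confidence intervals ran from -0.45 to 0.27, from -0.39 to 0.22 and from -0.43 to 0.33.

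Host and snoRNA come from the same primary transcript, so the snoRNAs in the introns were set beside their hosts. The reference annotation placed 19 snoRNAs within the 7 hosts, and 9 of them, in 5 hosts, had a probe set of their own that passed the filter. In 6 of these 9 pairs the change of the snoRNA with glucose lay closer to 0 than that of its host, in both cell types. Of these 6 pairs, 4 have the same host, Snhg12, and the others are in Snhg1 and Snhg6. Only 0.594% to 2.61% of all tested genes had a change as low as or lower than these hosts. Most genes set beside them would thus show the same, and the count largely follows from the choice of hosts. The pairs in Snhg3 and Snhg4 did not show this in both cell types. Snord22, in Snhg1, read 10.06 and 9.96 in knockdown cells at 10 mM against 10.06 and 10.17 at 1 mM, and 9.89 and 10.06 in control cells at 10 mM against 10.13 and 10.10 at 1 mM. Its changes of -0.11 and -0.14 stood beside -1.56 and -1.29 for Snhg1 in knockdown and control cells. Snord99, in Snhg12, changed by -0.03 in knockdown and -0.10 in control cells, while the host changed by -2.10 and -1.40.

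The snoRNAs Snora16a, Snora44 and Snora61 of the same host changed by -0.38, -0.07 and -0.34 in knockdown cells, and by -0.07, -0.39 and -0.83 in control cells. Among these only Snora61 in control cells was called (adjusted p = 0.00865). Snord87 changed by -0.49 in knockdown cells (adjusted p = 0.0739) and by -0.33 in control cells (adjusted p = 0.193), where Snhg6 fell by 1.21 and 1.60. The remaining 3 pairs did not follow this pattern. Snora74a read 5.68 and 5.88 in knockdown cells at 10 mM against 7.18 and 6.70 at 1 mM, and 5.52 and 5.27 in control cells at 10 mM against 6.84 and 6.83 at 1 mM. It fell by 1.16 ± 0.19 (adjusted p = 0.00435) and by 1.44 ± 0.19 (adjusted p = 0.00207), further than the falls of 0.61 and 0.64 of its host Snhg4. Snora73a changed by -0.42 in knockdown and -0.50 in control cells, and Snora73b by -0.34 and -0.78, beside -0.36 and -0.24 for their host Snhg3. None of these changes was called.

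The difference between snoRNA and host was tested over the 4 arrays at 10 mM and the 4 at 1 mM, both cell types together, with a two-sided exact permutation test. With 70 arrangements the smallest p is 0.0286, and 7 of 9 pairs reached it (adjusted p = 0.0368 over the 9 pairs, exact permutation test). The arrangements ignored cell type, so they treat control and knockdown arrays as interchangeable, which was not shown. Arrangements within each cell type would be fewer, with a larger smallest p, and were not run. The p-values are therefore a description. All 7 sat at this smallest p, so whether any of them passed adjustment depended on how many reached it together. A pair reaches it when its differences at 10 mM and at 1 mM do not overlap. The share of all tested genes that would reach it against the same falling hosts was not computed, so the count is not particular to snoRNAs. Of these 7 pairs, 4 share the host Snhg12 and its values, so they are not independent of each other. The change of the snoRNA minus that of its host was 1.69 for Snord99, 1.53 for Snora16a, 1.52 for Snora44, 1.17 for Snora61, 1.30 for Snord22, 0.99 for Snord87 and -0.68 for Snora74a. Whether the probe sets of a snoRNA and its host respond alike to a change in RNA was not tested. The pairs of Snora73a and Snora73b with Snhg3, at -0.16 and -0.26, did not pass (exact permutation p = 0.600 and 0.571). With 7 arrays there are 35 arrangements, and the exact permutation test passed 6 pairs without control replicate 1, knockdown replicate 1 or knockdown replicate 2 at 10 mM. Without control replicate 2 at 10 mM or any of the 4 arrays at 1 mM it passed 0 pairs after adjustment and 4 or 5 unadjusted, with every difference of these 7 pairs keeping its sign. Because the hosts were chosen with their falls known, this is a description of how the snoRNAs compare with falling hosts.

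**Figure D3:**
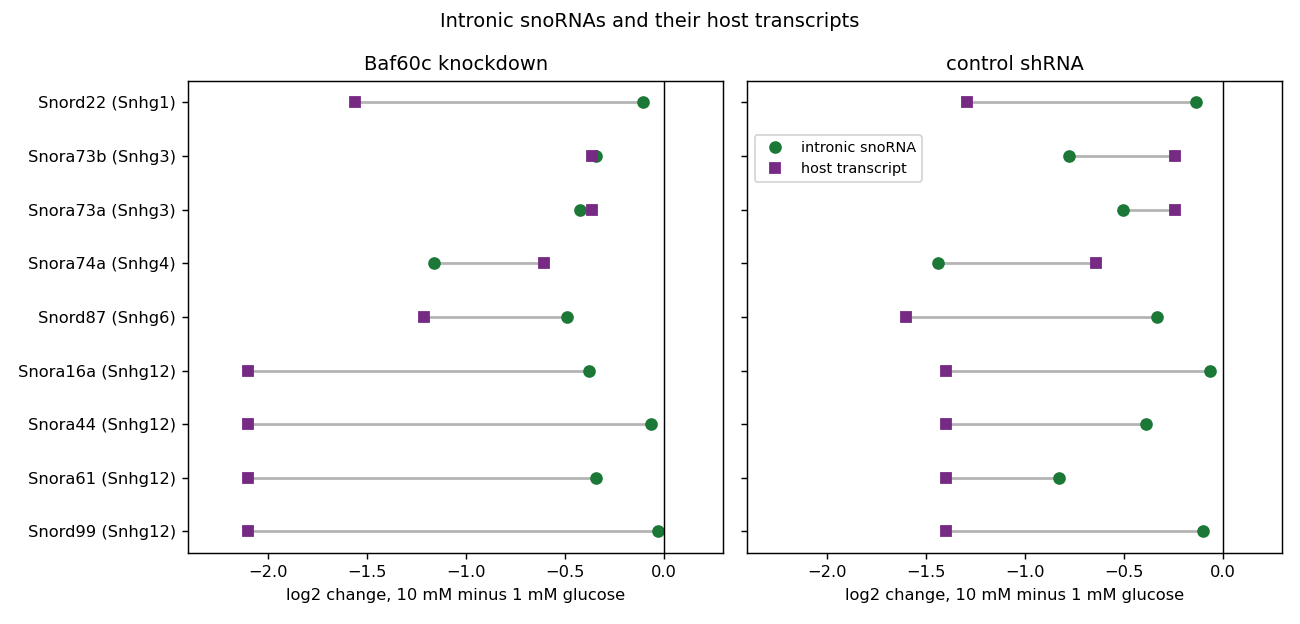
log2 change from 1 mM to 10 mM glucose (10 mM minus 1 mM) of 9 intronic snoRNAs (circles) and of the host transcript that carries them (squares), in knockdown and control cells. The circles of Snord22, Snord87 and the 4 snoRNAs of Snhg12 lie closer to 0 than the squares, and Snora74a lies lower than Snhg4.

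Related genes were read from further lists, whose counts stand beside 10.6% lower and 14.5% higher among all tested genes in knockdown cells and 12.1% and 13.2% in control cells. Of 12 other non-coding snoRNA hosts, 11 were tested. In knockdown cells 3 fell, 1 rose and 7 did not pass, with a median change of -0.47, and in control cells 4 fell, 1 rose and 6 did not pass, with a median of -0.26. Snhg17 fell by 1.10 ± 0.13 in knockdown cells (adjusted p = 0.00122) and by 1.12 ± 0.13 in control cells (adjusted p = 0.00134), and of its 2 further probe sets 1 fell in each cell type. Zfas1, the antisense host of Snord12, fell by 0.96 ± 0.14 and 1.00 ± 0.14, and Epb41l4aos by 0.69 ± 0.15 and 1.06 ± 0.15, in knockdown and control cells. Snhg7 fell in control cells (-0.70 ± 0.19, adjusted p = 0.0322). Snhg14, the long imprinted host of the Snord115 and Snord116 families, rose by 1.05 ± 0.13 in knockdown and by 0.97 ± 0.13 in control cells, with group means under 3 at 1 mM, so a signal above background was not shown there. In knockdown cells 5 fell without replicate 1 at 1 mM, and 2 rose in knockdown cells without replicate 2 at 1 mM and in control cells without either knockdown array at 1 mM.

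Among protein-coding hosts the smallest p-values belonged to genes of nucleolar proteins. Of 26 listed, 22 were tested: in knockdown cells 4 fell, 0 rose and 18 did not pass (median -0.16), and in control cells 8 fell, 0 rose and 14 did not pass (median -0.20). Nop56 fell by 1.44 ± 0.14 in knockdown and 1.52 ± 0.14 in control cells, Nop58 by 1.53 ± 0.15 and 1.49 ± 0.15, Dkc1 by 1.11 ± 0.15 and 1.04 ± 0.15, and the nucleolin gene Ncl by 0.77 ± 0.22 and 1.15 ± 0.22. In control cells the other 4 were the ribosomal protein genes Rpl5 (-1.22 ± 0.35, adjusted p = 0.0398), Rpl17 (-0.85 ± 0.24, adjusted p = 0.0400) and Rpsa (-0.43 ± 0.12, adjusted p = 0.0327) and the elongation factor gene Eef1b2 (-0.49 ± 0.13, adjusted p = 0.0316). The count in control cells was 4 with no filter on dim genes, 4 and 5 without control replicate 1 and 2 at 1 mM, 3 without control replicate 2 at 10 mM and 5 without either knockdown array at 10 mM, and 1 rose without control replicate 2 at 1 mM. For 5 of these hosts the probe set used was not called while another of the same gene fell. For Taf1d the one used changed by 0.29 in control cells and was not called, while 7 of its 10 others fell, with all 10 between -1.34 and -0.26. For Rpl3 another fell by 0.62 in knockdown and 0.95 in control cells (used -0.12 in both), for Eif4a2 another fell by 0.95 in control cells (used 0.42), and for Rpl13 and Rpl4 others fell by 0.81 and 0.65 in knockdown cells (used -0.16 and -0.13).

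The proteins that bind and mature snoRNAs include Nop56, Nop58 and Dkc1, which stand in both lists. Of 18 tested genes of the snoRNP core and its assembly, 11 fell, 0 rose and 7 did not pass in knockdown cells (median -0.67), and 12 fell, 0 rose and 6 did not pass in control cells (median -0.61). Rrp9, a protein of the U3 particle, fell by 1.27 ± 0.15 in knockdown and 1.59 ± 0.15 in control cells. Among the H/ACA core proteins, Gar1 fell by 1.25 ± 0.25 and 1.44 ± 0.25 and Nhp2 by 0.91 ± 0.21 and 1.12 ± 0.21, while Nop10 changed by 0.07 and 0.05 and was not called (adjusted p = 0.720 and 0.809). Nolc1, a chaperone of snoRNPs in the nucleolus, fell by 1.07 ± 0.13 and 0.96 ± 0.13. The count in control cells was 6 without control replicate 1 at 1 mM and 7 without either control array at 10 mM, and that in knockdown cells was 7 without knockdown replicate 2 at 1 mM or replicate 1 at 10 mM, with 1 gene that rose without knockdown replicate 1 at 1 mM. Of the 10 tested snoRNAs listed as carried by the hosts, including Snord47 of Gas5, 1 fell in knockdown and 2 in control cells (medians -0.36 and -0.38). With trend and robust options in limma 3 and 5 fell. Under these options more genes fell over all 13308 tested as well, 1734 and 1976, beside 1406 and 1611 without them. In control cells 1 fell without control replicate 1 at 1 mM or replicate 2 at 10 mM, and in knockdown cells 2 fell without either control array at 1 mM.

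Genes of nonsense-mediated decay were read because several hosts are its targets. Of 11 tested factors, 1 fell, 1 rose and 9 did not pass in knockdown cells, and 1 fell, 0 rose and 10 did not pass in control cells, with medians of -0.15 and -0.16. Over all tested genes 10.6% fell and 14.5% rose in knockdown cells and 12.1% fell and 13.2% rose in control cells, so the 1 of 11 that fell is near the share of all genes. Smg9 fell by 0.52 ± 0.15 in knockdown cells (adjusted p = 0.0426) and by 0.68 ± 0.15 in control cells (adjusted p = 0.0157). The nuclease gene Smg6 rose by 1.01 ± 0.15 in knockdown cells (adjusted p = 0.00261) and changed by 0.40 in control cells (adjusted p = 0.0893). The helicase gene Upf1 changed by 0.10 and 0.03. The call of Smg9 in knockdown cells was lost without any of the 8 arrays, and in control cells without control replicate 1 at 1 mM or replicate 2 at 10 mM. In control cells 2 fell without either knockdown array at 1 mM, and in knockdown cells 2 rose without knockdown replicate 1 at 1 mM. Of 5 tested stress mRNAs also known as targets of this decay, 4 fell and 1 rose in each cell type. They were listed with earlier results of these data known, and the part of this decay in their changes was not tested. Ddit3 fell by 3.34 ± 0.13 in knockdown and 3.38 ± 0.13 in control cells, Atf3 by 3.14 ± 0.21 and 3.49 ± 0.21, Chac1 by 2.74 ± 0.14 and 3.13 ± 0.14 and Atf4 by 1.57 ± 0.24 and 1.43 ± 0.24, while Gadd45b rose by 1.05 ± 0.14 and 0.77 ± 0.14.

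**Figure D4:**
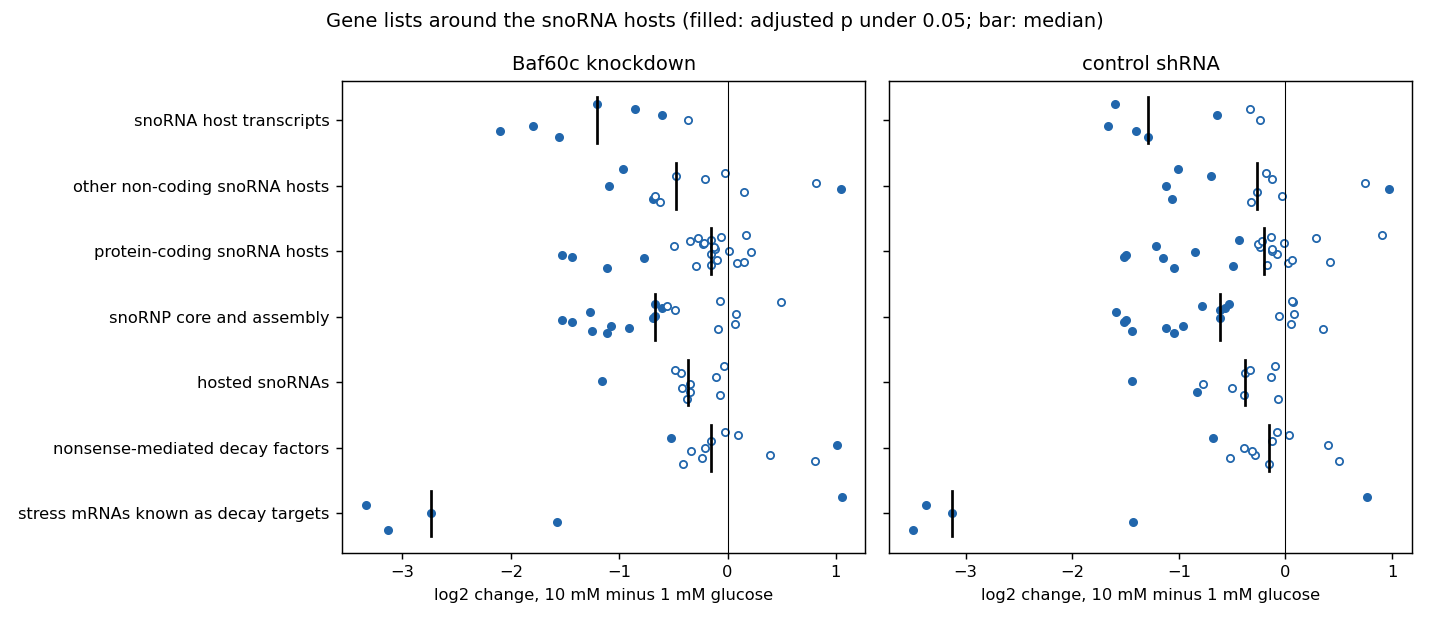
log2 change (10 mM minus 1 mM glucose) of each tested gene of 7 lists in knockdown and control cells, with filled points for adjusted p under 0.05 and bars at the list medians. The medians are -1.21 and -1.29 for the host transcripts, -0.67 and -0.61 for the snoRNP genes and -2.73 and -3.13 for the stress mRNAs, beside 0.03 and -0.01 over all tested genes.

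The hosts varied together across the arrays, as a description over 8 arrays that share their groups. They were chosen with their falls with glucose known, so a shared profile partly follows from that choice. The share of all tested genes with correlations as high was not computed. The correlation of a host with the mean of the other 6, each centred on its own mean, was 0.98 for Snhg15, 0.97 for Snhg1, 0.93 for Snhg6 and Snhg12, 0.87 for Snhg4, 0.73 for Snhg5 and 0.45 for Snhg3. Among all other tested genes, the profile most like the mean of the 7 hosts was that of Ifrd1, a transcriptional co-regulator gene (Pearson r = 0.996 over 8 arrays). It was followed by Stk40 (0.995), the co-chaperone gene Dnajc3 (0.994), the choline kinase gene Chka (0.994), Stard5 (0.994) and the phosphatase gene Ptprg (0.993). The most opposite were Stard10 (-0.996), Gas1 (-0.994) and the collagen gene Col6a2 (-0.993).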

How the data were processed

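The values were log2 expression, deposited for 41345 probe sets and 8 arrays and made by the authors with RMA and affy, per the submitters' processing notes. For tool versions, the probe design and its build, the sources used here give nothing. RMA puts all arrays on 1 distribution, which would hide a shift of the whole transcriptome, and it compresses differences at low signal. Precision is limited by the number of arrays: the median SE of a log2 change was 0.173, a 95% confidence interval of 0.406 to either side.

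Names came from GEO's platform annotation: 23521 probe sets had 1 gene, 1814 several and 16010 none. Gene IDs of 23328 of the 23521 matched the mouse GRCm38.p6 gene table, which changed 0 symbols and also gave the snoRNAs inside each host. A gene was represented by its probe set with the highest mean, and genes with a mean under the 40th percentile (2.30) were left out, leaving 13308. limma 3.58.1 in R 4.3.3 (lmFit, eBayes) was fitted to all 8 arrays with 1 mean per group, 4 residual and 3.36 prior degrees of freedom, two-sided, adjusted by Benjamini-Hochberg over the genes tested. Shared probe sets were tested with the same prior. The fit was tested on simulated data.

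The members and the 10 gene lists (125 genes) were chosen with earlier results of these data known. Named were all members, per list up to 4 called genes with the smallest p in each glucose comparison (up to 8 hosted snoRNAs), the 6 genes most and 3 least like the mean member profile, and Smarcd3. Gar1, Nhp2, Nop10, Upf1, Smg6 in control cells, Snhg7, Rpl5, Rpl17, Rpsa, Eef1b2, Taf1d, Rpl3, Eif4a2, Rpl13, Rpl4, Cd68, Ptprc and the remaining snoRNAs of the pairs were added after their values were seen. Alternatives were array centring, other filters, trend and robust options, array weights, the mean of probe sets, a replicate block and leaving out each array. The snoRNA and host pair test, the count with shared probe sets and the alternatives for the lists were added after seeing the data.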

Additional observations from a re-analysis of the deposited data

How the results depend on the processing

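The counts of called hosts for the glucose comparisons stayed within 1.5 times of 6 of 7 in knockdown and 5 of 7 in control cells under every alternative run, at 4 to 6 and 4 to 5 when each array was left out in turn, and all 7 hosts stayed below 0 in both. With the shared probe sets of Gas5 and Snhg8 counted, 7 of 9 were called in knockdown and 6 of 9 in control cells. The counts of 0 for knockdown and the interaction stayed at 0 without each array. They became 1 (Snhg12) at 1 mM with trend and robust options, and at 1 mM and averaged over both concentrations with the 60th percentile filter. No paired structure was taken from the replicate numbers, which the labels do not tie to a shared day or batch: same-numbered arrays of different groups deviated together at r = -0.04 to 0.11 over 6 pairs of groups. The replicate block kept 5 of 6 calls in knockdown and 4 of 5 in control cells and 0 elsewhere. Snhg4 lost its calls under it (adjusted p = 0.0718 and 0.0617) and with no filter on dim genes (0.0812 and 0.0668), where more genes were tested.

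Signs of changes that were not called turned when an array was left out. With knockdown at 1 mM the ranges were -0.0847 to 0.179 (Snhg1), -0.266 to 0.0547 (Snhg4), -0.152 to 0.208 (Snhg6) and -0.0999 to 0.129 (Snhg15). With knockdown at 10 mM they were -0.290 to 0.144 (Snhg4), -0.0738 to 0.293 (Snhg5), -0.0702 to 0.241 (Snhg12) and -0.386 to 0.163 (Snhg15). Averaged over both they were -0.201 to 0.0225 (Snhg1), -0.198 to 0.0193 (Snhg4) and -0.186 to 0.0886 (Snhg15). For the interaction they were -0.295 to 0.0598 (Snhg3), -0.185 to 0.250 (Snhg4, and -0.0144 with each array centred on its median) and -0.400 to 0.148 (Snhg15). The differences between snoRNA and host ran from -0.392 to 0.0233 for Snora73b and from -0.273 to 0.0419 for Snora73a, and the count of pairs that passed from 0 to 6. The cause of these changes was not tested.

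Over all genes, counts of calls with knockdown moved by over 1.5 times: at 1 mM 437 (60th percentile filter) and 598 (trend and robust options) beside 198, at 10 mM 291 and 467 with the same settings, 69 (no filter) and 73 (replicate block) beside 149, and averaged over both 1120 (trend and robust options) beside 573. Leaving out an array gave 30 to 129, 0 to 76 and 210 to 300 where the count moved as far, and as few as 1903 beside 3342 and 2046 beside 3372 glucose calls in knockdown and control cells.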
